A study of Sus scrofa with 16 samples.

Results

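The step at which the pig conceptus changes shape, from a large sphere to a tube, was examined in 8 of the 16 arrays of the series. The large spherical group held 4 samples of conceptuses 6 to 11 mm long and the tubular group 4 samples 13 to 45 mm long, grouped by their titles. Both groups were whole pig conceptuses (Sus scrofa, the embryo together with its extraembryonic membranes) with no treatment, strain, age or genotype named in the labels. Amplified RNA carrying a radioactive label was bound to membranes spotted with cDNA. The other 8 arrays, small spherical (1 to 5 mm) and filamentous (over 100 mm), served to estimate the spread of each probe and to place the step between its neighbours. All 1014 probes that varied were compared, of 1015 in the table, and 637 genes were named by at least 1 of them.

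Before it attaches to the uterus the pig conceptus elongates, from a sphere through a tube to a long filament. Its outer layer, the trophectoderm, is a simple epithelium that meets the uterine lining, and the hypoblast lies beneath it. The elongating trophectoderm makes oestrogen, which acts in the pig as the signal that maintains pregnancy. Its rapid elongation is known to involve cell migration and reshaping more than cell division.

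No probe changed between large spherical and tubular conceptuses. Of 1014 probes 0 passed the threshold, or 0.0% (limma, adjusted p under 0.05), and 33 had an unadjusted p below 0.05, or 3.25%, of which 17 (1.68%) were higher and 16 (1.58%) lower in tubular samples. The same 0 was found under all 20 alternative settings tried. At an unadjusted p below 0.05 (limma) there were 14 of 760 probes without the dimmest 25%, and 20 to 52 of 1014 under the others. Because a missed threshold does not show that levels are alike, each probe was also tested for a difference smaller than 2-fold, with a pair of one-sided tests against log2 limits of -1 and 1. By this test 809 probes, or 79.8%, differed by less than 2-fold (adjusted p under 0.05), and these are called held in what follows. Of the 637 named genes 514, or 80.7%, were held, and the count of each list below is to be read beside that share. At the tighter limit of 1.5-fold 0 passed after adjustment (0.0%, limma), while 452 had an unadjusted p below 0.05. That 0 depends on the setting, since 7 of the 20 alternatives gave some probes within 1.5-fold. The most were 678 with an offset of 16 before log2, which by itself shrinks the differences of dim probes. The median difference was -0.04 on the log2 scale with 42.0% of probes higher in tubular samples (52.0% after cyclic loess normalization), and the median size of a difference, whatever its sign, corresponded to 1.12-fold.

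**Figure D1:**
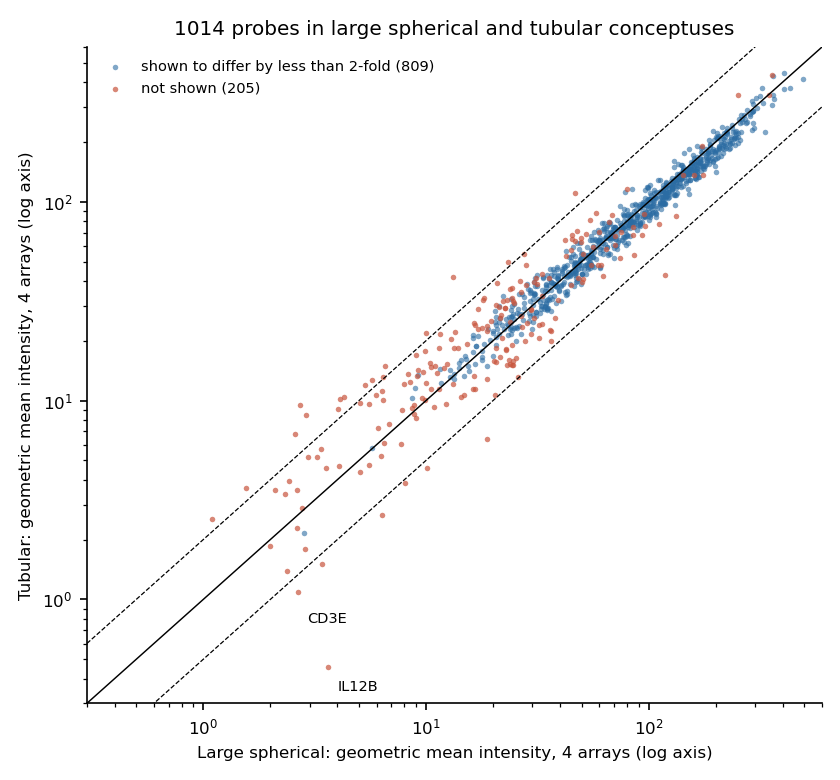
Geometric mean intensity of each probe over the 4 large spherical arrays (x) and the 4 tubular arrays (y), both on log axes, with the line of equality and dashed lines at 2-fold. The 809 blue probes were shown to differ by less than 2-fold and the 205 red ones were not, most of them dim, and IL12B and CD3E lie far to the lower left.

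The share of probes held followed brightness. Among the brightest 25% of probes, with geometric means of 125 to 449, 247 of 253 were held, or 97.6%. The share was 93.7% among the next 253 probes, 86.2% among the 253 after them and 42.0% among the 255 dimmest, where the median standard error was 0.39 against 0.21 among the brightest. Intensity depends on the probe as well as on the transcript, so brightness is used as a class of probe and not to rank transcripts. The deposited values are relative to each array, so a change in all transcripts together would not be seen. The 6 bright probes that were not held comprised HSP90AB1, TIMM21, ADSL and the unnamed probes 260, 364 and 652.

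The arrays did not separate by stage. For 7 of the 8 arrays the best match among the others, by Spearman correlation across probes, belonged to the other stage, the exception being tubular replicate 3. Large spherical replicate 3 and tubular replicate 2 matched best of all (0.974). That was above every pair within large spherical (0.879 to 0.934) and within tubular samples (0.851 to 0.96). No probe had the same value on both, but this was so for every pair across the 2 stages and says nothing about this pair. Large spherical replicate 1 matched tubular replicate 1 (0.939), and both stood apart from the other 6 on the first principal component (13.9 and 16.3 against -8.07 to -0.99). In small spherical and filamentous samples too the array numbered 1 was the highest on it. It stood at 13 against -5.73 to -2.93 and at 8.17 against -9.4 to 4.25. The main fit has no term for this number. The labels do not say what a replicate number marks, nor whether the samples are of different animals. The p-values therefore cover the spread among these arrays alone, which may be technical.

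All 22 genes of the cytosolic ribosome list were held, where 80.7% of the 637 named genes were. FAU, which also encodes a ribosomal protein, is not among them and was dropped from the lists after the values were seen. Of the 22, 15 were of the bright class, in which 97.6% of probes were held. RPS2, a protein of the small subunit at the entry of the mRNA channel, read 233, 201, 251 and 207 in the large spherical arrays and 236, 198, 217 and 245 in the tubular ones. The groups overlapped throughout, and the log2 difference was 0.01 with a 95% interval of -0.36 to 0.37, or 0.782- to 1.29-fold. RPL6 of the large subunit averaged 190 ± 27 and 195 ± 11.1 (SD, n = 4), a difference of 0.04 with an interval of -0.28 to 0.37. RPL23 had the lowest difference of the list, -0.33 (interval -0.80 to 0.13), with 297, 356, 215 and 337 against 347, 181, 228 and 213, and the groups overlapped. Its difference ran from -0.21 without tubular replicate 2 to -0.52 without tubular replicate 1. The list median was -0.10 with 5 members higher and 17 lower, beside -0.05 for all named genes, of which 41.4% were higher. With quantile normalization the list median was -0.02.

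Translation factors load mRNA on the ribosome and carry transfer RNA to it, and 15 of their 17 measured genes were held, with a median of -0.05. EEF1A1, the elongation factor that delivers aminoacyl-tRNA, read 366, 268, 324 and 278 and then 412, 273, 282 and 239. In both stages replicate 1 was the highest, and the difference was -0.05 (interval -0.61 to 0.51). EIF1, an initiation factor that guards the choice of start codon, had among the tightest intervals of all genes: it averaged 111 ± 7 and 112 ± 6.79 (SD, n = 4), with a difference of 0.01 (interval -0.29 to 0.31). EIF4A1, the helicase of cap-dependent initiation, differed by -0.25 (interval -0.75 to 0.26). Not held were EIF2S2, a subunit of the factor that brings the initiator tRNA, and PABPC4, which binds poly(A) tails. EIF2S2 read 128, 91.4, 117 and 111 against 43.4, 95.5, 105 and 83.6, a difference of -0.51 (interval -1.09 to 0.06), with tubular replicate 1 the low value. Quantile normalization moved the list median to 0.01.

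Of 13 chaperone genes, whose products fold newly made proteins, 12 were held, beside 80.7% of named genes, and the median was -0.06. HSPD1, the mitochondrial chaperonin, read 166, 165, 154 and 128 and then 159, 135, 135 and 118, overlapping groups with a difference of -0.16 (interval -0.50 to 0.17). CCT4, a subunit of the cytosolic chaperonin that folds actin and tubulin, averaged 162 ± 5.25 and 158 ± 42.8 (SD, n = 4), and tubular replicate 1 was the highest at 221. The exception was HSP90AB1, the constitutive cytosolic HSP90, which read 253, 278, 560 and 416 against 372, 491, 515 and 377. On 4 of these 8 arrays it read the maximum value of the array, where a probe can be saturated. It shared that value with other probes on tubular replicates 2 and 4, and held it alone on large spherical replicate 3 and tubular replicate 3. Its interval of -1.01 to 1.57 spans more than 2-fold both ways. The fit shares 1 spread over all stages, and in small spherical samples HSP90AB1 ranged from 25.7 to 434 (SD 177). HSP90B1 was held on its brightest probe (-0.17). Of its 3 probes, with differences of -0.56 to -0.17, 2 were held. With cyclic loess normalization the list median was 0.02.

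For protein turnover, 15 of 17 proteasome and ubiquitin genes were held, beside 80.7% of named genes, with a median of -0.08. PSMA1, an alpha subunit of the core particle, read 141, 181, 151 and 136 and then 184, 131, 148 and 110, a difference of -0.11 (interval -0.53 to 0.31). UBB, a ubiquitin gene, averaged 127 ± 14.2 and 116 ± 24 (SD, n = 4). The members not held, PSMA7 and USP4, were dim, with no value above 26.6. PSMA7 ranged from 0.28 to 11.4.

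Energy metabolism gave no called change either. All 8 genes of the respiratory chain and ATP synthase were held, beside 80.7% of named genes. Of these 4 were higher and 4 lower, where 41.4% of named genes were higher, and the median was 0.00. ATP5A1, the alpha subunit of ATP synthase, read 181, 128, 194 and 195 and then 247, 180, 167 and 165, a difference of 0.12 (interval -0.29 to 0.53). ATP5O, which joins the catalytic head of the synthase to its peripheral stalk, read 80.9, 186, 181 and 174 against 72.8, 165, 167 and 131. Its low values were those of replicate 1 in both stages. Its hold was lost without large spherical replicate 1 or tubular replicate 2, 3 or 4, and that of ATP5F1 was lost without large spherical replicate 1, 3 or 4 or tubular replicate 1 and on the 12 arrays numbered 2 to 4. Mitochondrial ribosome, import and carrier genes had 12 of 15 held, near the 80.7% of named genes (TIMM13, TIMM21 and TOMM5 were not). These 15 had a median of -0.05 that was 0.05 at most under another scaling. Among them SLC25A6, an ADP/ATP carrier, averaged 151 ± 17.5 and 146 ± 8.74, and SLC25A3, the phosphate carrier, 223 ± 73 and 217 ± 67.3 (SD, n = 4).

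Of 5 glycolysis and glucose uptake genes 4 were held, near the 80.7% of named genes. Their median of -0.02 was 0.01 to 0.08 under the other scalings. SLC2A1, the main glucose transporter of trophoblast, read 108, 135, 157 and 136 and then 134, 145, 124 and 126, a difference of -0.01 (interval -0.38 to 0.37). LDHB, a lactate dehydrogenase subunit, differed by -0.02 (interval -0.53 to 0.49), ranging from 110 to 141 and from 84 to 189. ENO1, a glycolytic enolase, differed by 0.05 (interval -0.33 to 0.43). GAPDH read 84.6, 71.4, 79.1 and 81.8 and then 68.3, 70.5, 63.9 and 71.4. Its highest tubular value equalled its lowest large spherical one at 3 digits, and its difference of -0.21 (interval -0.50 to 0.08) did not pass. SLC2A3 was not held, and its brighter probe differed by -0.20 while the other differed by 0.83. In the Krebs cycle 3 of 5 genes were held (median 0.13), DLD and SUCLG1 being the others. MDH2, the mitochondrial malate dehydrogenase, read 86.4, 79.7, 88.5 and 83.7 and then 104, 99.6, 89.8 and 92.6. All its tubular values lay above the large spherical ones, which was so for 1.1% of named genes, with a difference of 0.19 (interval -0.12 to 0.50). Fatty acid and lipid genes had 4 of 5 held and a median of -0.24, which was -0.03 without tubular replicate 3.

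**Figure D2:**
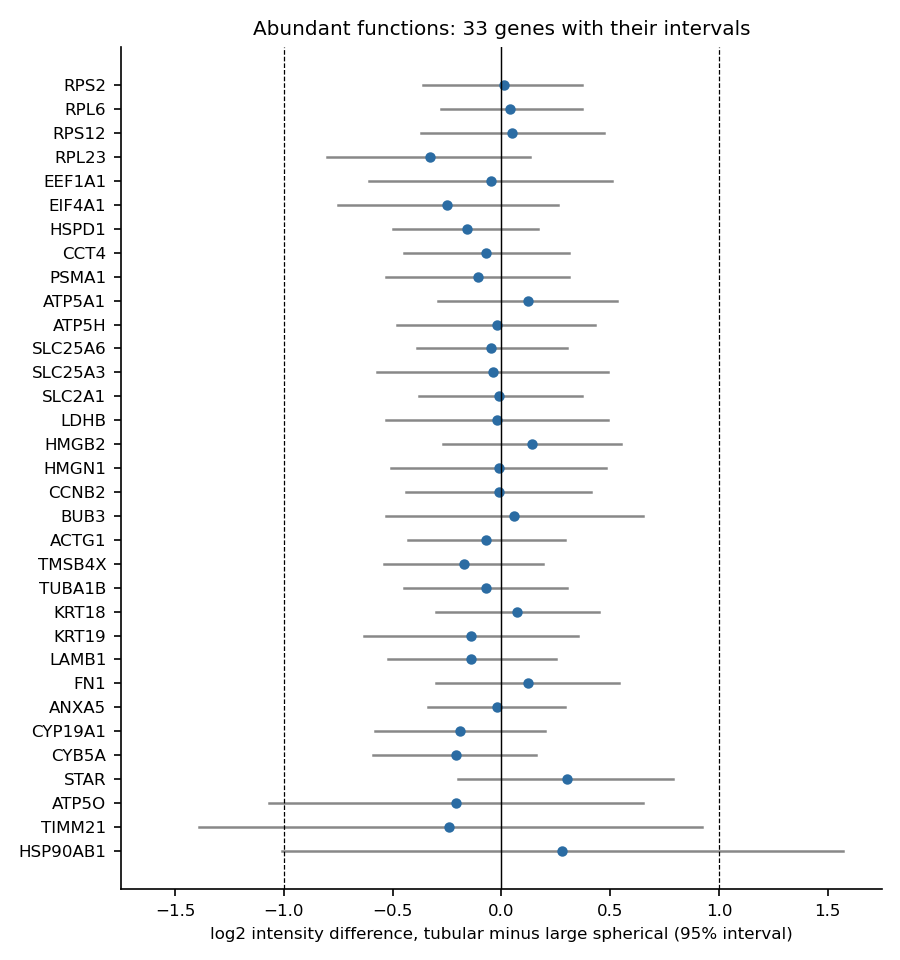
Fitted log2 difference (point) and 95% interval (line) for 33 genes of the abundant functions, chosen by hand with their values known, with dashed lines at 2-fold. Each interval draws on the spread within all 4 stages. The intervals of 30 lie inside 2-fold, while those of the last 3, ATP5O (-1.07 to 0.65), TIMM21 (-1.39 to 0.92) and HSP90AB1 (-1.01 to 1.57), pass it.

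RNA-processing genes showed 17 of 19 held, beside 80.7% of named genes. Of the 19, 6 were higher and 13 lower, where 41.4% of named genes were higher. The list median was -0.10, beside -0.05 for all named genes. SRSF1, a splicing factor of the serine-arginine family, read 107, 148, 106 and 130 and then 106, 99.6, 105 and 105. All 4 tubular values were below the large spherical ones, the closest pair equal at 3 digits, as for 1.73% of named genes, but by little, with a difference of -0.23 (interval -0.61 to 0.15). SNRPD1, a core protein of the spliceosomal particles, differed by -0.22 (interval -0.67 to 0.22). DDX1, an RNA helicase, was not held: tubular replicate 1 read 4.86 where the other 7 arrays read 28.4 to 44.4.

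Cell cycle genes had 7 of 9 held, near the 80.7% of named genes. Of the 9, 1 was higher and 8 lower, where 41.4% of named genes were higher. The list median was -0.09, beside -0.05 for all named genes. CCNB2, a mitotic cyclin, averaged 130 ± 22 and 129 ± 22.7 (SD, n = 4), a difference of -0.01 (interval -0.44 to 0.41). BUB3 of the spindle checkpoint differed by 0.06 and TOP2A, the topoisomerase of dividing cells, by -0.02 (intervals -0.53 to 0.65 and -0.52 to 0.48). Chromatin genes had 11 of 12 held, and their median of -0.01 turned to 0.01 to 0.04 under the other scalings. HMGB2, a DNA-bending protein with the brightest named probe of the array, read 379, 356, 442 and 443 and then 505, 491, 420 and 377. The groups overlapped, the difference was 0.14 (interval -0.27 to 0.55), and on 3 of the 8 arrays it was at the maximum.

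Of 9 actin cytoskeleton genes 8 were held, and all 5 microtubule genes, where 80.7% of named genes were. ACTG1, cytoplasmic gamma actin, read 169, 198, 199 and 176 in large spherical and 157, 201, 180 and 170 in tubular samples. The values overlapped, with a difference of -0.07 (interval -0.43 to 0.29). TMSB4X, a thymosin that binds actin monomers, averaged 186 ± 14.9 and 165 ± 14.8 (SD, n = 4), and its difference of -0.17 (interval -0.54 to 0.19) did not pass. TUBA1B, an alpha tubulin, read 196, 173, 191 and 185 and then 187, 193, 152 and 179 (difference -0.07, interval -0.45 to 0.30). Each of the 2 lists had a median of -0.07, which turned to at most 0.02 and 0.03 under another scaling. TAGLN, a smooth-muscle actin-binding protein, was not, ranging from 23 to 105 and from 24.6 to 175. VIM, the intermediate filament of mesenchyme, averaged 28.9 ± 7.3 and 40.4 ± 14 (SD, n = 4). Its difference was 0.24 without tubular replicate 3. Its hold (difference 0.45, interval -0.15 to 1.05) was lost in 10 of the 20 alternatives, among them those without large spherical replicate 1, 3 or 4 or tubular replicate 1, 2 or 4.

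Keratin and junction genes were held as well. KRT18, a keratin of simple epithelia and a trophectoderm marker, read 317, 228, 225 and 282 and then 311, 247, 268 and 274, a difference of 0.07 (interval -0.30 to 0.45). KRT19 differed by -0.14 (interval -0.63 to 0.35), and KRT8, the partner of KRT18, by -0.04 (interval -0.58 to 0.50). CDH1, the cadherin of epithelial junctions, averaged 90 ± 16.3 and 87.5 ± 16.4 (SD, n = 4). CTNNB1, which links cadherins to actin, differed by -0.25 (interval -0.62 to 0.12). All 6 genes of this list were held (median -0.04), beside 80.7% of named genes. The list includes CDH5, an endothelial cadherin, which differed by 0.17 on its brighter probe. The other CDH5 probe, at 0.53, was not held. Among hypoblast and yolk sac proteins 7 of 8 were held (median 0.08, all but AMBP): the brighter APOA1 probe averaged 97 ± 10.4 and 105 ± 16.7 (SD, n = 4), and AFP, the fetal albumin-like protein, differed by 0.07 (interval -0.43 to 0.57). The other APOA1 probe, with a difference of 1.2, was not held. Of the 3 probes of RBP4, with differences of -0.02 to 0.29, 1 was held. The 8 genes, of which 7 held is near the 80.7% of named genes, include FN1, which is also counted among the matrix genes. Of the embryonic disc and mesoderm list KDR was held (0.13) and T, brachyury, was not. The difference of T was 0.79 (interval -0.54 to 2.12), 0.11 without large spherical replicate 2 and 1.57 without large spherical replicate 3. Of the blood and endometrial lists 1 gene each was measured. CD3E, a T cell gene, read 1.83, 3.33, 4.34 and 1.92 and then 0.33, 2.08, 1.24 and 1.63, near the bottom of the scale, and its difference of -1.30 was -0.73 without tubular replicate 1. ACP5, uteroferrin, which the endometrium secretes, averaged 17.5 ± 6.58 and 24.9 ± 3.05 (SD, n = 4), with a difference of 0.58 (interval -0.22 to 1.38) that was 0.32 without large spherical replicate 1. In these whole conceptuses fewer cells of a type and less RNA per cell cannot be told apart.

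Of 20 genes of extracellular matrix, integrins and proteases 15 were higher and 5 lower in tubular samples, with a median of 0.19, where 41.4% of named genes were higher. The direction also followed brightness over all probes, with median differences of -0.09 for the brightest 25%, then -0.07 and 0.02, and 0.10 for the dimmest. Only 2 of the 20 genes were of the bright class, and without the dimmest 25% of probes the list median was 0.07. No member passed over all probes, and 13 were held. LAMB1, a laminin chain of basement membrane, read 274, 276, 226 and 332 and then 268, 209, 256 and 273, one of its bright and flat members (difference -0.14, interval -0.52 to 0.25). FN1, fibronectin, differed by 0.12 (interval -0.30 to 0.54) and the brighter probe of COL3A1, a fibrillar collagen, by 0.07 (interval -0.29 to 0.44). The other COL3A1 probe, at -0.37, was not held. COL4A2, a chain of the basement membrane collagen, read 24.3, 21.4, 16.4 and 12.8 and then 27.5, 26.7, 40.1 and 39.6. All 4 tubular values were above the large spherical ones, and the difference was 0.86 ± 0.33 SE (unadjusted p = 0.02 and adjusted p = 0.999, limma). MMP2, a protease that cuts that collagen, differed by 0.50 ± 0.20 (unadjusted p = 0.0231, adjusted p = 0.999), from 96.4, 61.4, 79.1 and 81.8 to 110, 117, 146 and 82. TIMP1, a protease inhibitor, differed by -0.65 (interval -1.5 to 0.20). Without tubular replicate 1 the list median was 0.04, and on the 12 arrays numbered 2 to 4 it was 0.05.

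**Figure D3:**
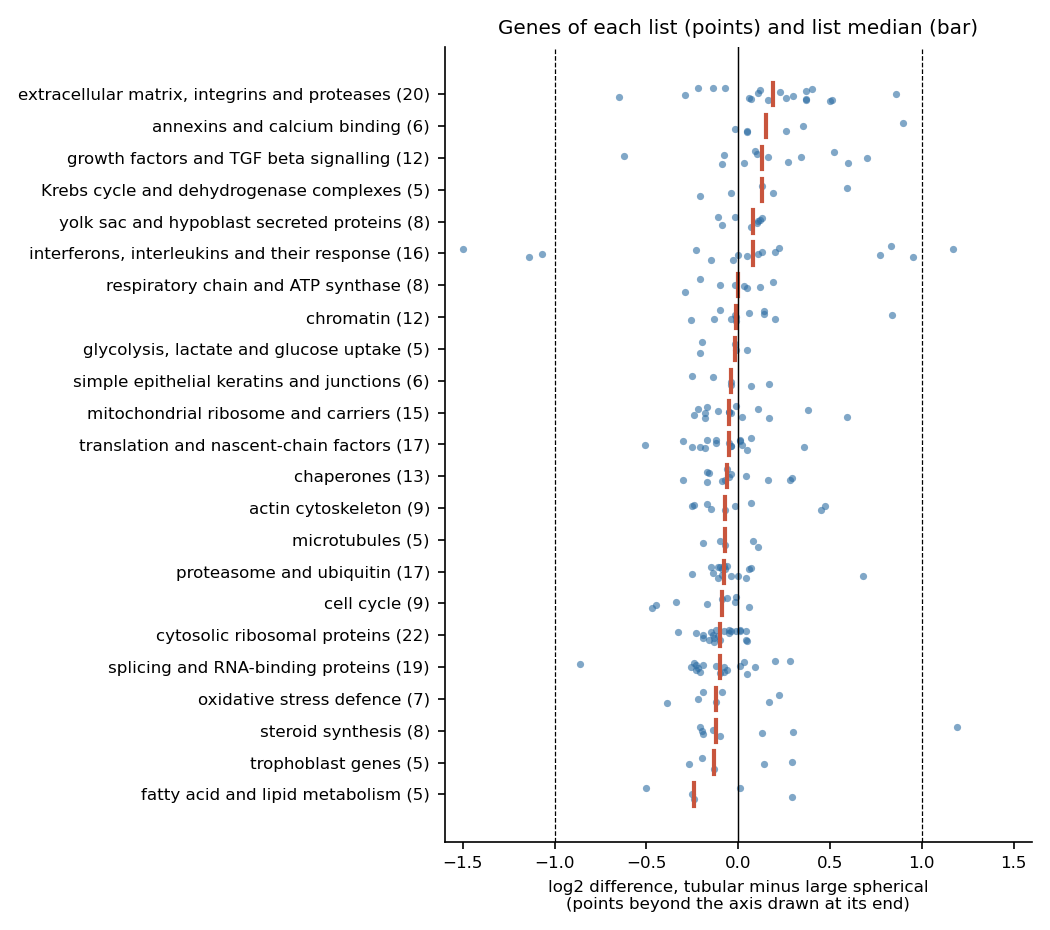
Log2 difference of each gene (point) and the median (red bar) for the 23 lists with at least 5 measured genes, whose number follows the name, with dashed lines at 2-fold. The medians run from -0.24 for fatty acid and lipid metabolism to 0.19 for extracellular matrix, and IL12B, at -2.99, is drawn at the left end of the axis.

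No gene of steroid synthesis changed here. STAR, which moves cholesterol into mitochondria for steroid synthesis, rose in the step before (log2 difference 1.72, adjusted p = 0.00207, limma). In the step to the tube it read 84.6, 131, 145 and 178 and then 142, 187, 152 and 160. The groups overlapped, the difference was 0.30 (interval -0.20 to 0.79) and STAR was held under all 20 alternatives. Without large spherical replicate 1 the difference was 0.09. Its mean was 40 ± 7.89 in small spherical and 153 ± 34.3 in filamentous samples (SD, n = 4). CYP19A1, the aromatase that makes oestrogens, read 216, 218, 205 and 253 and then 249, 224, 161 and 160, a difference of -0.19 (interval -0.58 to 0.20). CYB5A, which assists CYP17A1, averaged 162 ± 16.3 and 139 ± 12.5 (SD, n = 4), and CYP11A1, the side-chain cleavage enzyme, differed by 0.13 (interval -0.53 to 0.79). In all 7 of 8 were held, beside 80.7% of named genes, with a median of -0.12. In the first step the list median was 0.86, beside -0.02 for all named genes. In that step 8 of 8 were higher, and STAR alone passed, but the share higher over all named genes was not counted. CYP17A1, the gene not held in the step to the tube, was dim and scattered (26.1, 8.02, 7.01 and 1.24 against 7.12, 14.2, 20.7 and 23.3). Its difference was 1.19 (interval -0.43 to 2.80). That difference was 0.39 without large spherical replicate 4, 1.85 without large spherical replicate 1 and 2.21 on the 12 arrays numbered 2 to 4.

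Both steps share the large spherical arrays, so the difference between them was tested in the fit itself. On the log2 scale the smallest p among named genes was that of IL12A. Its second step minus the first was -3.23 (interval -4.92 to -1.53, unadjusted p = 0.00102, limma). ARID1A followed in the other direction, at 1.87 (interval 0.82 to 2.93, unadjusted p = 0.00176). STAR came next, at -1.42 (interval -2.28 to -0.57, unadjusted p = 0.00287). The adjusted p was 0.612 for each (limma). COL4A2 went the same way as ARID1A, at 1.68 (interval 0.46 to 2.90, adjusted p = 0.85). For CYB5A the second step minus the first was -1.04 (interval -1.70 to -0.39, adjusted p = 0.612, limma). For SMAD4, a mediator of TGF beta signals, it was -0.70 (interval -1.24 to -0.16, adjusted p = 0.894). For SOD1, a superoxide dismutase, it was -0.91 (interval -1.66 to -0.15, adjusted p = 0.894). TGFB3, a secreted growth factor, read 26.1, 54.7, 52.4 and 55 and then 72.8, 70.5, 68.2 and 50.2. Its difference of 0.52 (0.26 without large spherical replicate 1) had a wide interval (-0.80 to 1.85), and it was not held. The fit shares 1 spread over all stages, and TGFB3 ran from 14.2 to 99.5 in filamentous and 1.79 to 14.5 in small spherical samples. Its second step minus the first was -2.88 (interval -5.18 to -0.59, adjusted p = 0.894). STAR, CYB5A, SMAD4, SOD1 and TGFB3 were all higher in large than in small spherical samples. That large spherical level is subtracted in this contrast, so genes picked for such a rise tend to negative values. Over all probes 0 of 1014, or 0.0%, passed for a difference between the steps, with 44 at an unadjusted p below 0.05. The shares of probes held were 71.3% in the first step, 79.8% in the second and 77.6% in the third, from tubular to filamentous, while 0.394%, 0.0% and 0.0% changed. At an unadjusted p below 0.05 the shares were 9.37%, 3.25% and 3.35%, and 4.34% for the difference between the first and second steps. Differences between these shares were not tested.

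**Figure D4:**
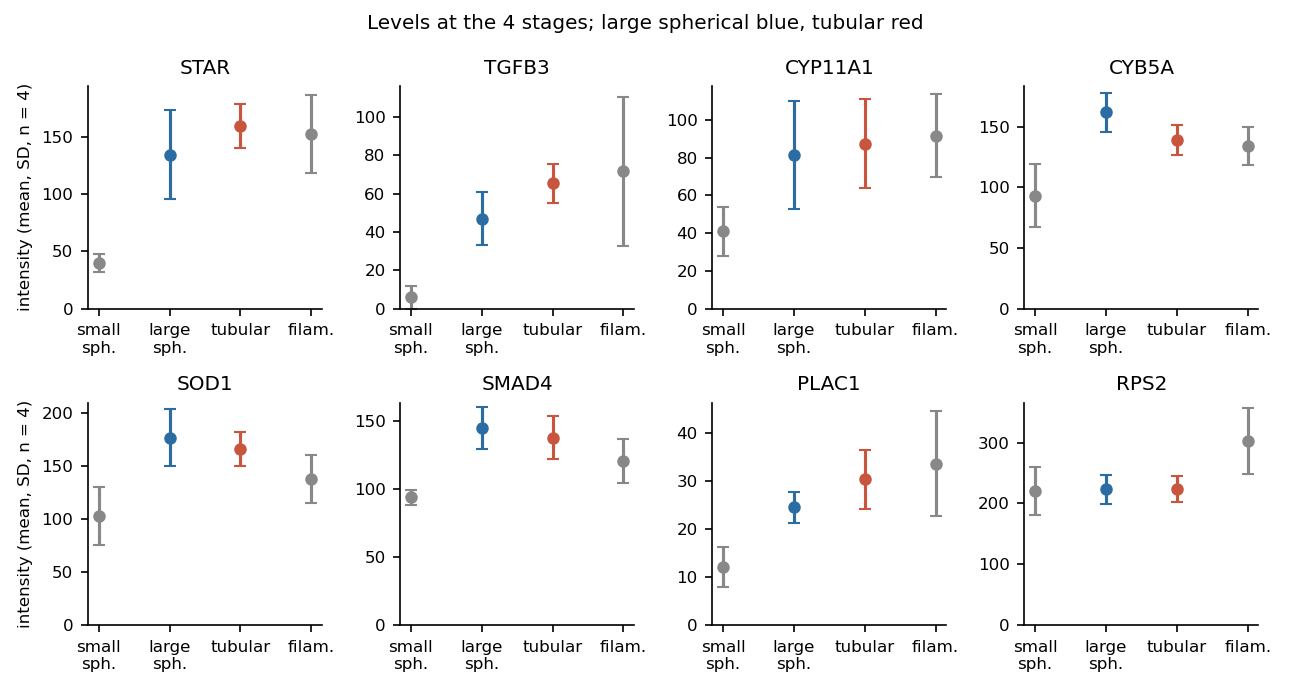
Mean intensity with SD (n = 4 arrays) at each of the 4 stages for 8 genes, with large spherical in blue and tubular in red. From large spherical to tubular samples STAR goes from 135 to 160 and RPS2 from 223 to 224, while small spherical samples read 40 for STAR.

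Among 5 genes of trophoblast 3 were held (median -0.13), GCM1 and PDPN being the others. PLAC1, a placental gene, averaged 24.6 ± 3.26 and 30.4 ± 6.14 (SD, n = 4), a difference of 0.29 (interval -0.30 to 0.88), and SFN, an epithelial 14-3-3 protein, differed by -0.13 (interval -0.79 to 0.52). PDPN, podoplanin, was not held, although its 8 values lay between 148 and 230. The fit shares 1 spread over all stages, and in small spherical samples its SD was 69.1. Of 6 annexin and calcium-binding genes 5 were held, with a median of 0.15. ANXA5, which binds phospholipid membranes, read 130, 136, 138 and 136 and then 150, 139, 114 and 133, a difference of -0.02 (interval -0.34 to 0.29). ANXA4 was not held: tubular replicates 1 and 2 read 101 and 41.3 where the other 6 arrays read 17.7 to 27.1, and its difference of 0.90 became 0.44 without tubular replicate 1 and 0.55 on the 12 arrays numbered 2 to 4. Of 12 growth factor genes 8 were held, beside 80.7% of named genes. The median was 0.13 (0.02 without tubular replicate 1), with 9 higher and 3 lower, where 41.4% of named genes were higher. The brighter probes of CTGF (0.16), IGFBP7 (-0.09) and PDGFRB (0.27) were held. Their other probes (0.62, -0.15 and -0.77) were not. VEGFA, an angiogenic factor, read 306 on tubular replicate 1 and 41.4 to 85 on the other arrays.

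Of 16 interferon and interleukin genes 6 were held, with a median of 0.08 that was -0.03 under 1 of the scalings. IFNG, an interferon that the pig conceptus secretes before it attaches, read on its brighter probe 183, 171, 97.8 and 116 and then 184, 97.5, 160 and 115 (difference -0.03, interval -0.52 to 0.46). Its other probe, at -0.23, was not held. IL12B, a subunit of interleukins 12 and 23, had the smallest p of all named genes: it read 1.83, 3.33, 2.67 and 10.8 and then 0.33, 1.69, 0.157 and 0.509. Its groups did not overlap, but at the bottom of the scale, and its difference of -2.99 ± 0.70 SE did not pass (unadjusted p = 0.00069, adjusted p = 0.7, limma). It was -0.29 with an offset of 16 before log2, but an offset above all these values shrinks any difference. IL12A, the other subunit of interleukin 12, differed by -1.14 ± 0.46 (unadjusted p = 0.0257), from 6.99 to 15.1 down to 2.16 to 7.94.

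None of the remaining genes with the smallest p passed the threshold (adjusted p = 0.999 for each, limma). ARID1A, a chromatin remodelling subunit, read 9.65, 11.4, 9.68 and 8.91 and then 13.9, 16.3, 28.2 and 15.2, with no overlap and a difference of 0.84 ± 0.29 SE. TMSB10, a thymosin, read 93.7, 79.7, 87.1 and 76.1 and then 161, 97.5, 118 and 99.1. It too had no overlap, with a difference of 0.47 ± 0.20, and it was held within 2-fold under all 20 alternatives. DLD, shared by the mitochondrial 2-oxoacid dehydrogenases, differed by 0.59 ± 0.23, and by 0.37 on the 12 arrays numbered 2 to 4. MSL1, of a histone acetyltransferase complex, differed by 0.65 ± 0.27 (0.35 without large spherical replicate 3), and FLT1, a receptor for VEGFA, by 1.80 ± 0.77 at intensities of 1.35 to 13.9.

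On the lower side, CENPF, a kinetochore protein, read 180, 148, 133 and 147 and then 87.5, 139, 122 and 95.9. Only tubular replicate 2 reached the large spherical range, and the difference of -0.47 ± 0.17 became -0.27 on the 12 arrays numbered 2 to 4. BNIP3L, a mitophagy receptor, read 228, 166, 177 and 230 and then 129, 175, 146 and 160, a difference of -0.39 ± 0.16 (-0.24 on those 12 arrays). It belongs to the list of oxidative stress defence, with 6 of 7 held (not PARK7) and a median of -0.12. ACSL1, an acyl-CoA synthetase, read 229, 215, 183 and 176 and then 154, 106, 142 and 170. Its groups did not overlap, with a difference of -0.50 ± 0.21. ACSL1 was held, but not without large spherical replicate 4 or tubular replicate 4. AARS, the alanyl-tRNA synthetase, differed by -0.36 ± 0.15 and NSFL1C, a cofactor of the p97 ATPase, by -0.39 ± 0.16, the latter without overlap. CENPF, BNIP3L, AARS and NSFL1C were each held within 2-fold under all 20 alternatives. All 4 tubular values lay above the large spherical ones for 12 probes (1.18%) and below them for 18 (1.78%).

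**Figure D5:**
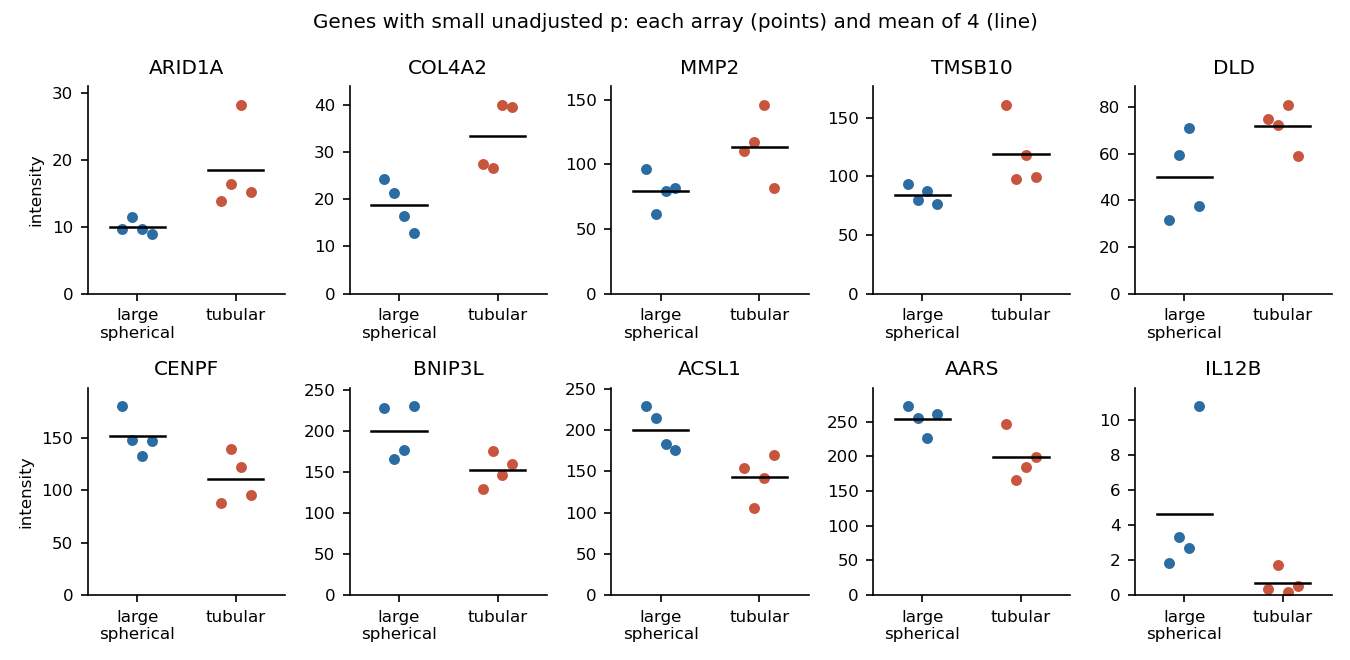
Intensity on each array (points) with the mean of 4 (line) for 10 genes with small unadjusted p, large spherical in blue and tubular in red, each panel on its own axis from 0. ARID1A, COL4A2, TMSB10, ACSL1 and IL12B do not overlap, and none of the 10 passed after adjustment.

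The intervals that reached least far from no difference were those of ATXN10, EIF1, DUSP14, USMG5, ANXA5, MCL1, ZNF706, IDH3A, RPS2 and RPL6. ATXN10, ataxin 10, averaged 62.5 ± 6.16 and 62.3 ± 4.01 (SD, n = 4), with an interval of -0.29 to 0.29. FTL, the ferritin light chain and the 1 measured gene of iron transport, differed by 0.00. USMG5, a small protein bound to ATP synthase, averaged 155 ± 16.7 and 152 ± 12.7, and MCL1, a survival factor of the BCL2 family, 80.7 ± 8.49 and 79.6 ± 8.37 (SD, n = 4). Some bright genes had means as close but scattered values. PLBD1 averaged 179 ± 104 and 177 ± 102 (SD, n = 4), with 202, 315, 81.8 and 116 against 322, 83, 159 and 144, and CDO1, cysteine dioxygenase, ranged from 117 to 535 in large spherical samples. Both were held over all arrays, but CDO1 was not when any single array of the 2 stages was left out, and PLBD1 not without tubular replicate 1 or 2 or any large spherical array.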

How the data were processed

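For each probe and array the authors deposited a linear intensity, and 0 columns were left out. Scanning, background and normalization are not given in the sources used here. Per the labels, each stage had 4 samples. Values were taken to log2 with no pseudocount or further scaling, since array medians were close (62.8 to 71.4). The probe that held 1 value on every array was left out. Of 1015 probes 676 had 1 gene symbol, 15 several and 324 none; 668 of 674 single Entrez identifiers were found in the RefSeq table, which changed 0 symbols. Where probes shared a gene the brightest stood for it, and of 34 such genes 17 had every probe held within 2-fold.

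The linear model held 1 mean for each of the 4 stages, used every array and left 12 residual degrees of freedom (limma 3.58.1, R 4.3.3, lmFit and eBayes). Tests were adjusted by Benjamini-Hochberg over 1014 probes, with a threshold of 0.05. Intervals are 95% from the moderated fit and unadjusted. Fold values compare geometric means. The test for less than 2-fold took the larger p of the 2 one-sided tests. Members, the 27 lists and alternatives were chosen with earlier results of these data known, and the lists were trimmed after the values were seen. Taken out were LAMP2, ACOT6, KATNBL1, CDC37 and RPL7L1, matched by spelling alone, and, by choice, TPT1 and FAU. Named genes were the 8 higher and 8 lower with the smallest p, the 4 brightest of each list, the 10 brightest, the 10 with the tightest intervals, the 5 brightest-class genes with the widest, 21 fixed genes, and the 3 with the smallest p between steps, 129 in all. Other genes were named for not being held or to show 1 array, after their values were seen.

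Alternatives covered scaling, filters, an offset, the replicate number as a block, arrays and probe order. On simulated data (20 sets of 1014 probes, 200 of them changed between these stages) 74.3% of unchanged probes were called within 2-fold. So were 2.5% of those changed by exactly 2-fold (log2 of 1), of which 65.6% were called changed. At a log2 change of 0.5, 46.9% were called within 2-fold and 21.6% changed. The noise was independent between arrays, and with 200 changed probes the adjusted threshold is easier to pass. These shares therefore do not give the power to call a lone change in the real arrays. Plots were drawn with matplotlib 3.10.9.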

Additional observations from a re-analysis of the deposited data

Results flagged for a closer look

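Of 258 groups of 4 values (129 genes in each stage) 9, or 3.49%, had 1 array far from the other 3, where chance flags about 1 in 20. In large spherical samples ATP5O read 80.9 and STMN1, a microtubule destabiliser, 79.1 on replicate 1, below the others (174 to 186 and 119 to 121). On the same array TGFB3 read 26.1, below 52.4 to 55, and DYNLRB1, a dynein light chain, 88.2, above 49.7 to 54.7. On large spherical replicate 2, ERGIC2 read 685 (others 278 to 297) and DDX47 423 (223 to 249), while BUB3 read 151 (210 to 221) and MCL1 68 (83.7 to 86.4). In tubular samples SRSF1 read 99.6 on replicate 2, against 105 to 106.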

How the results depend on the processing

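Under all 20 alternatives 0 probes changed, and 0 differed between the steps wherever that could be fitted, which a fit of only the 2 stages does not allow. Probes held within 2-fold numbered 716 of 760 without the dimmest 25%. Under the settings with 1014 probes they numbered 732 (without large spherical replicate 1) to 1000 (offset of 16 before log2), and 732 to 777 without 1 array of the 2 stages. The offset by itself shrinks the differences of dim probes. At a limit of 1.5-fold 0 probes were held, and 0 of the bright ones. Among the brightest 10%, 98 of 101 probes were held. Of 113 named genes held, 94 were held under every alternative. The replicate numbers were not taken as pairs, since the same-numbered arrays of the 2 stages correlated by 0.455, -0.117, 0.151 and 0.273 in their deviations. With the number as a replicate block 0 probes changed, 860 were held within 2-fold and 249 within 1.5-fold, and 0 differed between the steps.

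Of 564 list medians under alternatives 28 moved beyond the spread of arrays. Without 1 array, the median ran from -0.21 to 0.03 for glycolysis, 0.01 to 0.27 for the Krebs cycle, -0.38 to -0.03 for fatty acid genes, -0.21 to -0.06 for the cell cycle, -0.09 to 0.05 for actin and -0.08 to 0.00 for microtubules. It ran from 0.04 to 0.27 for matrix, -0.20 to 0.22 for trophoblast and -0.01 to 0.14 for yolk sac genes. On the 12 arrays numbered 2 to 4 the medians were -0.16 for glycolysis, 0.05 for matrix, -0.22 for steroid synthesis and 0.00 for yolk sac genes. Quantile normalization gave 0.02 for microtubules and -0.03 for steroid synthesis, and cyclic loess 0.03 and -0.04, with 0.02 for chaperones. With the trend along probe number removed it was 0.00 for the Krebs cycle and -0.04 for yolk sac genes. The matrix median was 0.07 without the dimmest 25% of probes and 0.09 with array weights. For CD3E, the 1 blood gene, an offset of 16 gave -0.12, but it shrinks any difference at values that low. The median of oxidative stress genes was -0.32 without large spherical replicate 1 and 0.06 with array weights, that of interferon and interleukin genes -0.10 with array weights, and that of annexins 0.05 without the dimmest 25% of probes. The causes were not tested. Dim probes limit the precision, as does the number of arrays.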
